A study of Mus musculus with 28 samples.

Results

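Matrix metalloproteinases (MMPs) and the tissue inhibitors of metalloproteinases (TIMPs) were followed in O9-1 cells, a mouse line of cranial neural crest cells, the embryonic cells that form much of the face and skull. The members were 10 genes chosen by symbol: Mmp2, Mmp3, Mmp9, Mmp10, Mmp11, Mmp13, Mmp14, Timp1, Timp2 and Timp3. All 10 were found once each among the 54429 genes of the deposited count table. The study asked whether low oxygen alters the ability of these cells to enter chondrocyte, osteoblast or smooth muscle lineages.

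The 28 RNA-seq libraries fell into 8 groups, each culture condition being held at 21% O2 (normoxic, 4 libraries a group) or at 0.5% O2 (hypoxic, 3 libraries a group). Proliferating cells grew in STO-conditioned medium with 15% fetal calf serum (FCS), 25 ng/ml bFGF, 5 ng/ml LIF, non-essential amino acids and beta-mercaptoethanol. Osteoblast cultures spent 10 days in alpha-MEM with 10% FCS, 10 mM beta-glycerophosphate, 0.1 µM dexamethasone and 100 ng/ml BMP-2. Chondrocyte cultures spent 3 days in osteoblast medium, followed by 7 days in micromass culture on Matrigel-coated plastic in alpha-MEM with 5% FCS, an insulin-transferrin-selenium supplement, 0.1 µM dexamethasone, 10 ng/ml TGF-beta3 and 50 ng/ml BMP-2. Smooth muscle cultures spent 3 days in DMEM with 10% FCS. All groups derive from 1 cell line, and every medium held penicillin and streptomycin. No label says that the libraries of a group came from separate cultures, so the p-values measure only the spread between these libraries, which may be technical.

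Libraries held 19869271 to 64693346 counts. The hypoxic smooth muscle libraries stood apart from the other 25: mitochondrial ribosomal RNA made up 11.6 to 13.3% of their counts against at most 0.0889% elsewhere, and their TMM scaling factors were 0.518 to 0.545 against 0.896 to 1.26. The summed level of 7 smooth muscle markers in them was 92.3 to 117 CPM (counts per 1e+06 counts of a library after scaling), against 3646 to 4083 CPM in the normoxic smooth muscle group, 193 to 197 CPM in hypoxic proliferating cells and 92.2 to 99.2 CPM in normoxic proliferating cells. The label smooth muscle is therefore used below for a medium and not for a cell type. Library 4 of the normoxic osteoblast group also stood apart, with a chondrocyte marker sum of 1504 CPM against 187 to 204 CPM in libraries 1 to 3. Of 10 hypoxia response genes, 10 rose under hypoxia in proliferating, osteoblast and smooth muscle cultures and 9 rose in chondrocyte cultures. Defining markers of other MMP sources were low in every library: summed levels reached at most 1.15 CPM for 6 osteoclast markers, 0.81 CPM for 4 neutrophil markers and 7.70 CPM for 4 endothelial markers. The macrophage marker Cd68 reached 31.6 to 35.6 CPM in the hypoxic smooth muscle libraries and at most 5.45 CPM elsewhere, while of the other 6 macrophage markers C1qa and Itgam had no count and Csf1r, Ptprc, Lyz2 and Adgre1 held 738, 81, 50 and 7 counts over the 28 libraries.

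MMPs are zinc-dependent enzymes that cut the proteins of the extracellular matrix, and most are secreted as inactive precursors whose propeptide must be removed. TIMPs bind the active site of MMPs and block them, and TIMP2 also takes part with the membrane enzyme MMP14 in activating the precursor of MMP2. In the developing skeleton MMP13 cuts the collagens of cartilage and bone matrix, and MMP2 and MMP14 act in matrix turnover of mesenchyme. Messenger RNA was measured here, so protein amounts, activation and inhibition are outside the data.

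The genes of 3 members, Mmp13, Mmp3 and Mmp10, lie in this order in a cluster of Mmp genes on chromosome 9 (GRCm38). The 9 cluster genes examined here span 427.1 kb, and Mmp1a was not among them. The other 6 genes examined held between 0 and 79 counts over all 28 libraries. RefSeq promoter entries of 300 bases (GRCm38.p6), reaching from upstream of the start site into the first transcribed bases, were matched for 8 of the 10 members, all but Mmp2 and Mmp9. The 3 clustered members are printed because, of the 8 entries, these are the ones that hold the AP-1 letters TGAGTCA (both strands searched). All 3 promoters lie on the plus strand of chromosome 9, and capitals mark the AP-1 letters.
Mmp13, chr9:7272264-7272563: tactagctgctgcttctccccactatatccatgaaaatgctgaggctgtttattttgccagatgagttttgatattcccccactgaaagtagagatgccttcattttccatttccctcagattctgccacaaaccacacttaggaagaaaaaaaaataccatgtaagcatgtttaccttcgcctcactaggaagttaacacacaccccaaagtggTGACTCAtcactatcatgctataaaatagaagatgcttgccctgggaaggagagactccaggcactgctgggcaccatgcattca
Mmp3, chr9:7445572-7445871: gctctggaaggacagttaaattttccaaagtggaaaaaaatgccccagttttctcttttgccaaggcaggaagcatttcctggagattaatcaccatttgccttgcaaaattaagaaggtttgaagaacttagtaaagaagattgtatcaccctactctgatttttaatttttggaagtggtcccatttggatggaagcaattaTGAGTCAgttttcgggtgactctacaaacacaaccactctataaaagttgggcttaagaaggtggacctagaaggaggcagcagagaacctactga
Mmp10, chr9:7502092-7502391: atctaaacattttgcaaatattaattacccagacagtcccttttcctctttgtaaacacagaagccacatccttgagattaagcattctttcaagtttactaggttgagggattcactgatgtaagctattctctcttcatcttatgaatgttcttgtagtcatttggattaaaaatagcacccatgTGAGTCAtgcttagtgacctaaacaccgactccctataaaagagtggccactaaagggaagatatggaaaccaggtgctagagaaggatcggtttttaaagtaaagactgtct
AP-1 factors are dimers of the Fos and Jun families. The letters begin at -35 in Mmp13 (on the minus strand), at -46 in Mmp3 and at -63 in Mmp10, counted from the start site. The same 3 entries hold the TATA box letters TATAAA, at -16, -7 and -29. Of 32544 promoters of this length, 5.19% hold TGAGTCA and 13.6% hold TATAAA on either strand. The GC box letters GGGCGG were found in Mmp11, Mmp14, Timp1, Timp2 and Timp3 and in 35.9% of all promoters, and the RUNX letters ACCACA in Mmp13 and Mmp14 and in 16.7% of all promoters. The Ets letters AGGAAG were found in Mmp3, Mmp13, Mmp14, Timp1 and Timp3 and in 35.1% of all promoters. The hypoxia response core letters ACGTG were found in Mmp14 and Timp1 and in 19.7% of all promoters. A match describes the letters of the window and is no evidence of binding.

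Leaving proliferation in normoxia went with a rise of most matrix protease and inhibitor transcripts, while Mmp3 and Mmp10 were highest in proliferating cells. Of the 9 members tested in normoxic chondrocyte cultures 7 rose and 2 fell, where 74.9% of all tested genes were called at an adjusted p under 0.05 (edgeR quasi-likelihood test, Benjamini-Hochberg over all genes tested). The median log2 change of the members was 1.69 and that of all tested genes was 0.00. In normoxic osteoblast cultures 6 of 9 rose and 3 fell, against 78.7% of all genes called, with a median of 2.07 beside 0.07 for all genes. In normoxic smooth muscle medium 7 of 10 rose and 3 fell, against 79.7% of all genes called, with a median of 1.82 beside 0.03. The 2 falls in chondrocyte cultures, and 2 of the 3 in osteoblast cultures, were Mmp3 and Mmp10. Both passed the low-count filter there through proliferating cells alone, so the filter favoured a difference in that direction. In smooth muscle medium the same holds for the fall of Mmp10, and for the rise of Mmp9, which passed through the smooth muscle libraries alone. These counts and medians are therefore a description, set against a background in which most genes were called.

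In hypoxia the same steps gave 6 rises and 3 falls among 10 members in chondrocyte cultures (69.5% of all genes called, member median 0.44 beside -0.02) and 6 rises and 4 falls in osteoblast cultures (71.3% called, 1.88 beside 0.00). With library totals alone, the median of all genes moved to -0.35 in both chondrocyte comparisons with proliferating cells, 0.11 in normoxic smooth muscle medium, -0.23 in hypoxic osteoblast cultures and -1.35 in hypoxic smooth muscle medium. Between oxygen levels it moved to -0.19 in osteoblast cultures and -1.49 in smooth muscle medium, between chondrocyte and osteoblast cultures to -0.19 in normoxia and -0.10 in hypoxia, and to -0.12 and -1.37 for the osteoblast and smooth muscle interactions. In hypoxic smooth muscle medium 2 of 10 rose and 4 fell (70.0% of all genes called, member median -0.27 beside -0.07), and both rises turned into falls when libraries were scaled by their total alone, as given under the genes. Here too some members passed the filter through proliferating cells alone, so that their calls are a description: Mmp3, Mmp9 and Mmp10 in the chondrocyte and osteoblast comparisons, and Mmp10 in smooth muscle medium. Mmp9 and Mmp13 also passed through proliferating cells alone in smooth muscle medium, where neither was called and the libraries of both overlapped.

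**Figure D1:**
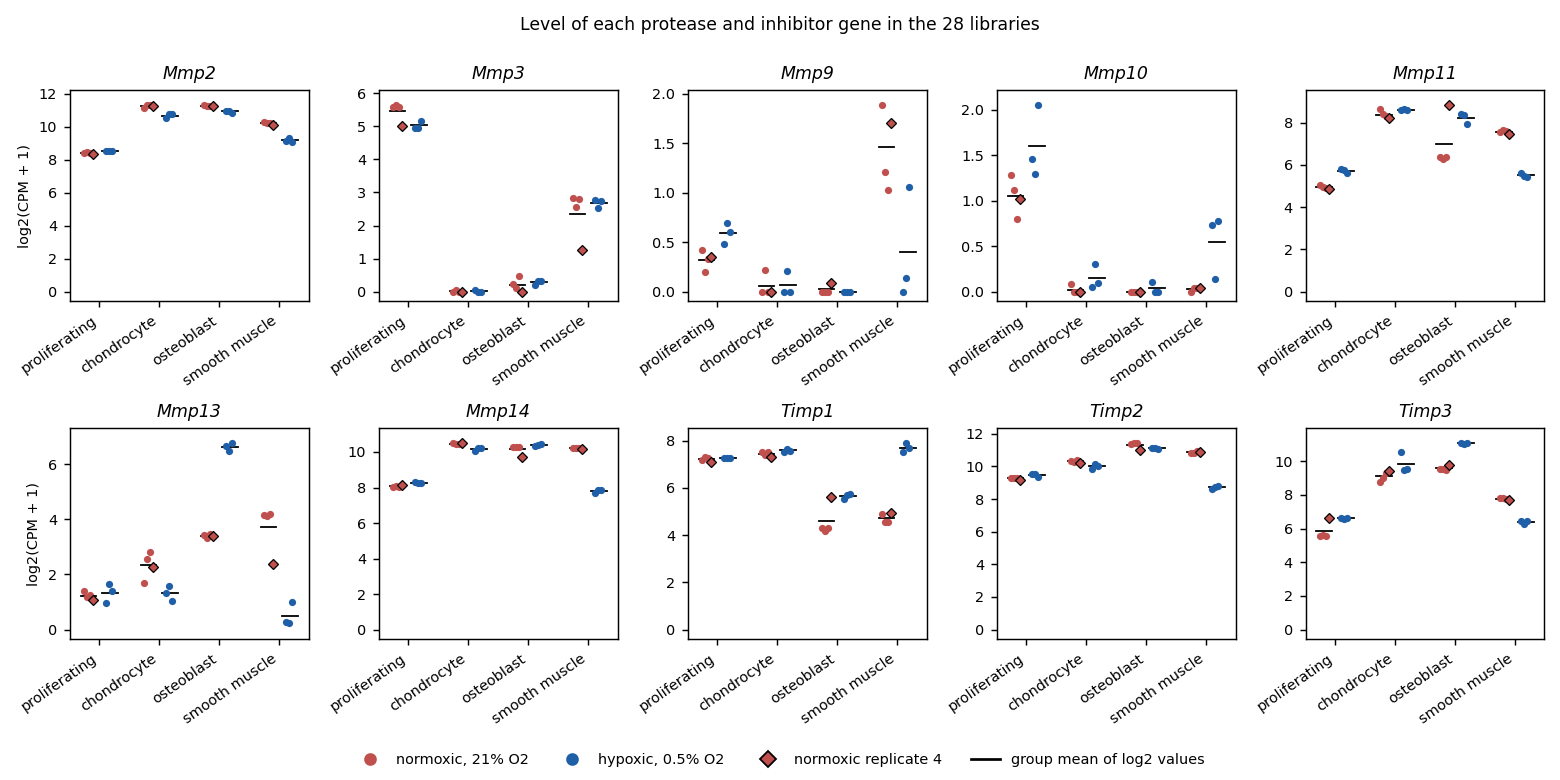
Level of the 10 genes in each of the 28 libraries, as log2(CPM + 1), by culture condition, with red for normoxic and blue for hypoxic libraries, diamonds for library 4 of the normoxic groups and black bars for group means. Mmp13 is highest in the 3 hypoxic osteoblast libraries (88.1 to 107 CPM), and Mmp3 is high only in proliferating cells (30.2 to 49.1 CPM).

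Mmp2 encodes gelatinase A, which cuts denatured collagen and basement membrane collagen; its gene lies at chr8:92827291-92853420 on the plus strand (GRCm38). It read 337, 348, 332 and 326 CPM in the normoxic proliferating libraries 1 to 4 and 371, 373 and 365 CPM in the 3 hypoxic ones. In chondrocyte cultures it read 2215, 2540, 2501 and 2437 CPM in normoxia and 1458, 1714 and 1716 CPM in hypoxia. In osteoblast cultures the normoxic libraries held 2495, 2482, 2416 and 2431 CPM and the hypoxic ones 2018, 2006 and 1853 CPM. Every differentiated library was thus above every proliferating one, and the hypoxic libraries were below the normoxic ones of the same lineage with no overlap. Mmp2 rose by a log2 change of 2.88 (SE 0.07, adjusted p 6.2e-12) in normoxic chondrocyte cultures and 2.86 (SE 0.06, adjusted p 4.1e-10) in normoxic osteoblast cultures. The hypoxic rises were 2.14 (SE 0.07) and 2.41 (SE 0.07), and both were smaller than the normoxic ones by the interaction test with interactions of -0.71 (SE 0.10, adjusted p 1.5e-05) and -0.41 (SE 0.08, adjusted p 5.5e-04).

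Mmp2 in smooth muscle medium read 1241, 1194, 1179 and 1089 CPM in normoxia and 556, 638 and 544 CPM in hypoxia, so the hypoxic libraries lay between the proliferating and the normoxic ones. The normoxic rise was 1.78 (SE 0.06, adjusted p 1.9e-13). The hypoxic rise of 0.82 (SE 0.08, adjusted p 1.9e-06) rested on the scaling: with library totals alone it became -0.46, while the median of all genes then moved to -1.35. In order of level, normoxic osteoblast and chondrocyte cultures shared the top and overlapped, and the other 6 groups followed without overlap between neighbours. The highest group mean was 7.31-fold the lowest.

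Mmp9 encodes gelatinase B, known from osteoclasts and leukocytes, and lies at chr2:164940780-164955850 on the plus strand. Its counts were few, from 0 in hypoxic osteoblast cultures to 244 in normoxic smooth muscle medium over all libraries of a group. That highest group read 2.69, 1.32, 1.04 and 2.26 CPM, above normoxic proliferating cells with 0.336, 0.144, 0.256 and 0.274 CPM without overlap. The log2 difference of 2.88 (SE 0.40) is given as a description, since Mmp9 passed the filter through the smooth muscle libraries alone. The hypoxic smooth muscle libraries held 0, 0.0972 and 1.07 CPM, overlapping the normoxic ones at 1.07 and 1.04 CPM. The fall there of -2.11 (SE 0.78, adjusted p 0.0235) lost its call when any of 4 libraries was left out: without normoxic library 1 the adjusted p was 0.0660, without normoxic library 4 it was 0.0611, and without hypoxic library 1 or 2 it was 0.0609 or 0.0673. Without hypoxic library 3, which held 12 of the 13 hypoxic counts, the difference was -5.18, and Mmp9 was then also called lower than in hypoxic proliferating cells (-3.28, adjusted p 0.0379). All 3 hypoxic osteoblast libraries were at 0 for Mmp9, where the level in hypoxic proliferating cells (44 counts) was at least 14-fold higher, taking 3 counts over the group as the floor. Chondrocyte libraries held 4 counts in all in normoxia, every one in library 2, and 4 in all in hypoxia, also in 1 library.

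Mmp14 encodes the membrane-anchored enzyme MT1-MMP, which cuts collagen at the cell surface and takes part in activating the MMP2 precursor; it lies at chr14:54431612-54445364 on the plus strand. Proliferating libraries read 265, 271, 264 and 281 CPM in normoxia and 319, 305 and 300 CPM in hypoxia. Chondrocyte libraries read 1451, 1396, 1415 and 1430 CPM in normoxia and 1072, 1196 and 1201 CPM in hypoxia. The osteoblast libraries held 1246, 1248, 1252 and 836 CPM in normoxia and 1269, 1333 and 1392 CPM in hypoxia. All chondrocyte and osteoblast libraries were above all proliferating ones, and normoxic osteoblast library 4 was the lowest of them. The log2 rises in normoxia were 2.43 (SE 0.05, adjusted p 5.4e-12) in chondrocyte, 2.07 (SE 0.13) in osteoblast and 2.10 (SE 0.05) in smooth muscle cultures. In hypoxia the rises were 1.91 (SE 0.07) in chondrocyte and 2.11 (SE 0.07) in osteoblast cultures.

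Mmp14 in smooth muscle medium read 1196, 1202, 1194 and 1154 CPM in normoxia and 203, 234 and 228 CPM in hypoxia. The hypoxic libraries were below both proliferating groups, and hypoxic smooth muscle was the lowest of the 8 groups for this gene. The difference between hypoxic and normoxic smooth muscle medium was -2.28 (SE 0.08, adjusted p 1.8e-12), and -3.65 with library totals alone. Against hypoxic proliferating cells Mmp14 fell by 0.30 on the log2 scale (SE 0.07, adjusted p 0.00352), and the change was -1.58 with library totals alone. The other members called lower in that comparison also moved with library totals alone, Timp2 to -1.84, Mmp10 to -3.14 and Mmp3 to -3.64. Fewer cells of a kind and less RNA per cell cannot be told apart in such bulk libraries, for this gene and for all below.

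Mmp13 encodes collagenase 3, the main fibrillar collagenase of mouse cartilage and bone; it lies at chr9:7272514-7283331 on the plus strand, with the promoter printed above. Proliferating libraries held 1.60, 1.25, 1.37 and 1.10 CPM in normoxia and 0.954, 2.11 and 1.66 CPM in hypoxia. The osteoblast libraries held 9.79, 8.99, 10.1 and 9.58 CPM in normoxia and 99.9, 88.1 and 107 CPM in hypoxia. Each hypoxic osteoblast library was thus well above every other library of the series, whose highest value was 17.2 CPM in normoxic smooth muscle medium. Mmp13 rose in osteoblast cultures by 2.84 in normoxia and by 5.98 (SE 0.17, adjusted p 2.7e-13) in hypoxia, where the mean CPM was 62.6-fold that of proliferating cells. Hypoxic osteoblast cultures exceeded normoxic ones 10.2-fold in mean CPM (log2 3.36, SE 0.10, adjusted p 5.8e-08), and the interaction was 3.18 (SE 0.25, adjusted p 5.7e-08). In these libraries the osteoblast marker sum was 13746 to 15821 CPM against 6788 to 10661 CPM in normoxia, and the chondrocyte marker sum was 598 to 639 CPM against 187 to 1504 CPM. The smooth muscle marker sum was 2172 to 2467 CPM against 3611 to 5176 CPM. The osteoblast marker sum was higher in chondrocyte cultures, at 38614 to 46717 CPM in normoxia and 44661 to 51620 CPM in hypoxia. By single markers, 7 of 8 tested were higher and 0 lower in chondrocyte than in osteoblast cultures in normoxia (59.7% of all genes called). In hypoxia 3 of 7 were higher and 2 lower (57.6%). The names osteoblast and chondrocyte are therefore used here for culture media and not for cell types. The part of these markers in the Mmp13 difference was not tested.

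In chondrocyte cultures Mmp13 read 2.24, 4.82, 6.01 and 3.82 CPM in normoxia and 1.49, 2.00 and 1.03 CPM in hypoxia, with no overlap. The normoxic rise over proliferating cells was 1.69 (SE 0.29, adjusted p 1.8e-04), while the hypoxic difference was -0.06 (SE 0.36, adjusted p 0.888), and the interaction was -1.72 (SE 0.48, adjusted p 0.00738). The difference of hypoxic from normoxic chondrocyte cultures was -1.51 (SE 0.35, adjusted p 0.0103), a call lost without hypoxic chondrocyte library 3 (-1.29, adjusted p 0.0550). The chondrocyte marker sum in these groups was 2911 to 8720 CPM in normoxia and 862 to 1298 CPM in hypoxia, and its part was not tested.

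Mmp13 in smooth muscle medium read 16.6, 16.2, 17.2 and 4.25 CPM in normoxia and 0.220, 0.194 and 0.984 CPM in hypoxia. Normoxic library 4 was far below the other normoxic libraries yet still above every proliferating library. The normoxic rise was 3.32 (SE 0.46, adjusted p 1.8e-04). The hypoxic libraries held 16 counts in all, and their difference from normoxia was -4.74 (SE 0.70, adjusted p 1.1e-04). Mmp13 passed the filter there through the normoxic group alone. Under limma-voom this difference was -4.77 with an adjusted p of 0.165, the highest over its alternatives, whose lowest was 7.0e-09. Against hypoxic proliferating cells Mmp13 differed by -1.58 (SE 0.66, adjusted p 0.0516), and by -2.72 (adjusted p 0.00775) without hypoxic smooth muscle library 3. With all libraries it passed with library totals alone (-2.84, adjusted p 0.00198), without the low-count filter (adjusted p 0.026) and under limma-voom (adjusted p 0.0447). Across the 8 groups, hypoxic osteoblast cultures led, normoxic smooth muscle and osteoblast cultures overlapped next, and hypoxic smooth muscle cultures were lowest, with 11 of their 16 counts in library 3.

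Mmp3 encodes stromelysin 1, which cuts many matrix proteins and activates other MMP precursors; it lies at chr9:7445822-7455975 on the plus strand. It read 46.8, 49.1, 47.3 and 31.0 CPM in normoxic proliferating libraries and 30.2, 30.2 and 35 CPM in hypoxic ones. Smooth muscle libraries read 6.08, 4.91, 5.91 and 1.42 CPM in normoxia and 5.79, 4.76 and 5.73 CPM in hypoxia. Chondrocyte cultures held a single Mmp3 count over 4 normoxic libraries and a single count over 3 hypoxic ones, and osteoblast cultures held 18 counts in each oxygen condition. Mmp3 was thus a transcript of proliferating cells, lower in smooth muscle medium and at few counts in the chondrocyte and osteoblast cultures. Its counts in normoxic proliferating cells (7947) were 5108-fold those in normoxic chondrocyte cultures after scaling (95% interval 917 to 201795, exact, counting error only). In hypoxia the matching ratio was 2750-fold (493 to 108650). The fall in osteoblast cultures was -8.08 (SE 0.41) in normoxia and -7.16 (SE 0.19) in hypoxia, given as a description since Mmp3 passed the filter through proliferating cells alone.

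The smooth muscle falls of Mmp3 were -3.28 (SE 0.38) in normoxia and -2.37 (SE 0.15) in hypoxia. Hypoxic and normoxic smooth muscle libraries overlapped, with a difference of 0.39 (SE 0.38, adjusted p 0.369) that became -0.98 with library totals alone. In proliferating cells the hypoxic minus normoxic difference was -0.46 (SE 0.15, adjusted p 0.0231), although normoxic library 4 overlapped the hypoxic libraries. That call was lost without normoxic library 1 or hypoxic library 1 or 2, with adjusted p between 0.0538 and 0.0775.

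Mmp10 encodes stromelysin 2, a close relative of MMP3, at chr9:7502352-7510240 on the plus strand. It read 1.42, 1.16, 0.735 and 1.03 CPM in normoxic proliferating libraries and 1.74, 1.46 and 3.14 CPM in hypoxic ones, again with proliferating cells at the top. Hypoxic proliferating cells were higher by 0.94 (SE 0.32, adjusted p 0.0181), a call lost without hypoxic library 3 (0.54, adjusted p 0.173). Normoxic osteoblast libraries held no Mmp10 count, so that proliferating cells were at least 42.3-fold higher. Normoxic chondrocyte cultures held 2 counts, normoxic smooth muscle medium held 3 and hypoxic osteoblast cultures held 2. Hypoxic chondrocyte cultures held 9 counts (0.0324, 0.236 and 0.0663 CPM), a ratio of 5.88 to normoxia (95% interval 1.22 to 55.9, exact, counting error only). Hypoxic smooth muscle medium held 18 counts (0.660, 0.0972 and 0.716 CPM), a ratio of 23.1 to normoxia (6.75 to 122). The interaction for this medium was 3.51 (SE 0.92, adjusted p 0.00181), on these few counts. Against hypoxic proliferating cells Mmp10 fell by 1.88 on the log2 scale (SE 0.62, adjusted p 0.0170), a call that rests on a gene passing the filter through proliferating cells alone and that was lost without hypoxic proliferating library 3 (-1.50, adjusted p 0.108).

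Mmp11 encodes stromelysin 3, an MMP that is activated inside the cell by furin and is known from mesenchyme in remodelling tissues; it lies at chr10:75923222-75936496 on the minus strand. Proliferating libraries read 32.6, 30.3, 28.7 and 28.3 CPM in normoxia and 54.2, 53.2 and 48.2 CPM in hypoxia. Chondrocyte libraries read 395, 335, 316 and 295 CPM in normoxia and 386, 395 and 391 CPM in hypoxia. Osteoblast libraries read 83.0, 76.2, 81.6 and 455 CPM in normoxia and 341, 324 and 245 CPM in hypoxia. Chondrocyte levels were high at both oxygen levels, and normoxic osteoblast library 4 was above all other libraries of the series while libraries 1 to 3 of its group were below every hypoxic osteoblast library. With all libraries the hypoxic minus normoxic osteoblast difference was 0.80 (SE 0.74, adjusted p 0.395), and without library 4 it was 1.92 with an adjusted p of 7.8e-09. Library 4 also held Col2a1, the main collagen of cartilage, at 786 CPM against 36 to 44.1 CPM in libraries 1 to 3, and Acan, the cartilage proteoglycan aggrecan, at 375 CPM against 90.7 to 99.5 CPM. The origin of this library was not tested.

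Mmp11 rose in chondrocyte cultures by 3.51 (SE 0.09, adjusted p 2.0e-11) in normoxia and by 2.91 (SE 0.07, adjusted p 7.2e-13) in hypoxia. In normoxic osteoblast cultures the rise was 2.53 (SE 0.60, adjusted p 0.00323) with library 4 and 1.37 without it. Smooth muscle libraries read 190, 200, 194 and 177 CPM in normoxia and 48.7, 43.1 and 42.3 CPM in hypoxia, which lay within or below the hypoxic proliferating range. The difference between oxygen levels there was -1.95 (SE 0.09, adjusted p 3.0e-11). In proliferating cells hypoxia went with a rise of 0.78 (SE 0.07, adjusted p 2.7e-07), which with 1 fit over all 28 libraries was 0.73 (adjusted p 0.165).

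Timp1 encodes a secreted inhibitor of wide range that is known to respond to growth factors; it lies at chrX:20870166-20874735 on the plus strand. Proliferating libraries read 145, 159, 150 and 137 CPM in normoxia and 152, 153 and 152 CPM in hypoxia. Chondrocyte libraries stayed near that level, with 183, 167, 183 and 158 CPM in normoxia and 184, 200 and 189 CPM in hypoxia. Osteoblast libraries were far lower, with 18.5, 16.9, 18.6 and 47.2 CPM in normoxia and 44.5, 50.8 and 52.2 CPM in hypoxia. Timp1 fell by 2.55 on the log2 scale (SE 0.32) in normoxic osteoblast cultures and by 1.63 (SE 0.07) in hypoxic ones. Normoxic library 4 lay within the hypoxic osteoblast range. With it the difference between oxygen levels was 0.96 (SE 0.37, adjusted p 0.0587), and without it 1.45 with an adjusted p of 1.7e-08. With all libraries it passed under DESeq2 (adjusted p 0.00626), limma-voom (0.0191) and 1 fit over all 28 libraries (0.00106). The rise in normoxic chondrocyte cultures was small at 0.25 (SE 0.06, adjusted p 0.00321) and became -0.09 (adjusted p 0.226) with library totals alone, while the hypoxic one of 0.33 became 0.00. Neither passed with 1 fit over all 28 libraries (adjusted p 0.453 and 0.229).

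Timp1 in smooth muscle medium was the single member called higher in hypoxia. Normoxic libraries held 29.0, 22.2, 22.6 and 29.5 CPM and hypoxic ones 181, 237 and 202 CPM, the highest group mean for this gene. Timp1 fell by 2.55 on the log2 scale (SE 0.09, adjusted p 3.1e-12) in normoxic smooth muscle medium. Hypoxic exceeded normoxic libraries 8.0-fold in mean CPM (log2 3.14, SE 0.12, adjusted p 5.8e-12), and with library totals alone the difference was 1.77. Against hypoxic proliferating cells the rise was 0.62 (SE 0.09, adjusted p 1.2e-04), but -0.66 with library totals alone, where the median gene moved to -1.35, and with 1 fit over all 28 libraries the adjusted p was 0.0695. The neural crest marker sum was 2912 to 3618 CPM in these hypoxic libraries, 2830 to 3072 CPM in hypoxic proliferating cells and 855 to 1048 CPM in normoxic smooth muscle medium. By single markers, 3 of 5 tested were higher and 2 lower in hypoxic than in normoxic smooth muscle medium (75.6% of all genes called). The part of the neural crest marker sum in the Timp1 level was not tested.

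Timp2 encodes the inhibitor that also bridges MMP14 and the MMP2 precursor; it lies at chr11:118301069-118355740 on the minus strand. Proliferating libraries read 624, 631, 626 and 584 CPM in normoxia and 728, 728 and 645 CPM in hypoxia. Osteoblast libraries read 2700, 2755, 2756 and 2045 CPM in normoxia and 2206, 2240 and 2179 CPM in hypoxia. Chondrocyte libraries read 1297, 1243, 1335 and 1178 CPM in normoxia and 905, 1129 and 1034 CPM in hypoxia. The order of lineages was thus osteoblast above chondrocyte above proliferating at both oxygen levels, without overlap. The normoxic rises were 2.05 in osteoblast (SE 0.10) and 1.07 in chondrocyte cultures (SE 0.06). The hypoxic rises were 1.66 (SE 0.07) and 0.55 (SE 0.09), the latter 0.22 with library totals alone, and the interactions were -0.34 (SE 0.13, adjusted p 0.0328) and -0.49 (SE 0.11, adjusted p 0.00133). The osteoblast interaction lost its call without any of 9 of the 14 libraries, with adjusted p of 0.0529 to 0.0871.

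Timp2 in smooth muscle medium read 1836, 1845, 1931 and 1853 CPM in normoxia and 386, 427 and 450 CPM in hypoxia, the latter below every proliferating library. It rose by 1.57 (SE 0.05) in normoxia and fell by 0.56 on the log2 scale (SE 0.08, adjusted p 5.5e-05) in hypoxia. The difference between oxygen levels was -2.01 (SE 0.08, adjusted p 7.1e-12).

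Timp3 encodes an inhibitor that is held in the matrix and also blocks proteases of the ADAM families; it lies at chr10:86300372-86349506 on the plus strand. Proliferating libraries read 46.0, 47.0, 45.9 and 96.0 CPM in normoxia and 99.6, 94.9 and 98.9 CPM in hypoxia. Chondrocyte libraries read 431, 507, 628 and 668 CPM in normoxia and 1470, 718 and 732 CPM in hypoxia. Osteoblast libraries read 732, 733, 699 and 873 CPM in normoxia and 2151, 2092 and 2144 CPM in hypoxia. Hypoxic libraries were above normoxic ones in both lineages without overlap, and in proliferating cells normoxic library 4 alone reached the hypoxic range. The hypoxic osteoblast rise over proliferating cells of 4.44 (SE 0.07, adjusted p 2.2e-16) was the largest among Timp1, Timp2 and Timp3 in the 6 comparisons with proliferating cells. Hypoxic osteoblast cultures exceeded normoxic ones by 1.49 (SE 0.10, adjusted p 4.3e-06). The interaction of 0.80 (SE 0.30, adjusted p 0.037) lost its call without any of 9 of the 14 libraries, with adjusted p of 0.0568 to 0.0710, as it did with library totals alone (0.0823) and without the low-count filter (0.0945), and it was 0.46 without normoxic proliferating library 4. In chondrocyte cultures the difference between oxygen levels was 0.78 (SE 0.30, adjusted p 0.116), which passed with 1 fit over all 28 libraries (adjusted p 0.0164) and was 0.37 without hypoxic chondrocyte library 1. In proliferating cells it was 0.74 (SE 0.32, adjusted p 0.0903) with all libraries and 1.06 (adjusted p 1.2e-16) without normoxic library 4. With all libraries it passed under DESeq2 (adjusted p 0.0364), limma-voom (adjusted p 0.0392) and 1 fit over all 28 libraries (adjusted p 0.0174).

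Smooth muscle medium gave 228, 219, 218 and 209 CPM of Timp3 in normoxia and 85.8, 76.8 and 86.9 CPM in hypoxia, the latter below hypoxic proliferating cells. The difference between oxygen levels was -1.25 (SE 0.08, adjusted p 1.8e-09). Exons of Timp3 share 1733 bases, 21.28% of their length, with Syn3 on the opposite strand. How strand was used in counting is not given in the sources used here. Syn3 itself read 11.6 to 13.6 CPM in hypoxic osteoblast libraries and at most 7.20 CPM elsewhere. Mmp11 shares 155 exonic bases with Chchd10 on the opposite strand, and Timp1 and Timp2 overlap Syn1 and Cep295nl without shared exonic bases.

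**Figure D2:**
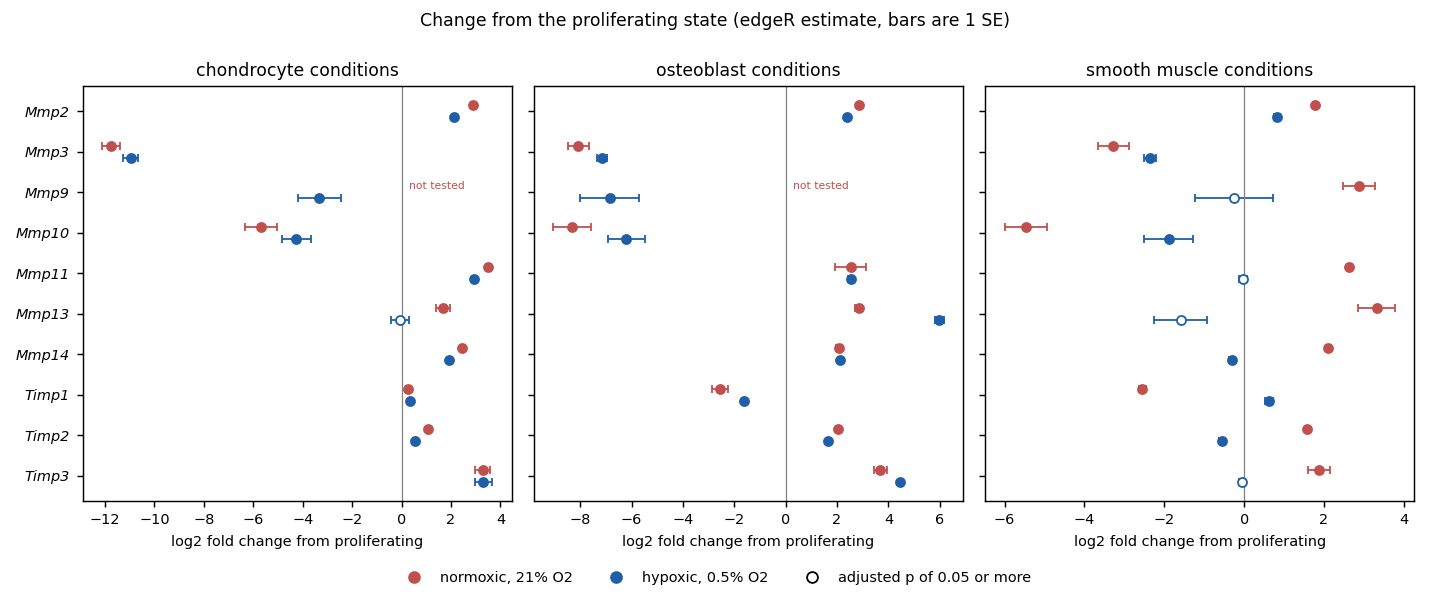
Log2 fold change of each gene from proliferating cells of equal oxygen, with bars of 1 SE, red for normoxia and blue for hypoxia, open circles for an adjusted p of 0.05 or more. In smooth muscle medium the hypoxic estimates lie near 0 for Mmp11 (-0.04) and Timp3 (-0.06), where the normoxic ones are 2.63 and 1.87; the hypoxic ones become -1.31 and -1.33 with library totals alone.

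Hypoxic and normoxic libraries were also compared within each culture condition. In proliferating cells 5 of 10 members rose and 1 fell, where 65.4% of all tested genes were called, and Mmp9 passed the filter through hypoxic cells alone. The called rises of Mmp2 (0.13), Mmp14 (0.18) and Timp2 (0.18) were small, and all 3 lost their call with library totals alone (adjusted p 0.245, 0.0527 and 0.0998). Without hypoxic proliferating library 1 or 2 the count of called members fell from 6 to 3. With 1 fit over all 28 libraries none of the 6 passed (adjusted p 0.137 to 0.42), and Timp3 alone did (adjusted p 0.0174). In chondrocyte cultures 4 of 7 tested members fell and none rose, where 22.2% of all genes were called. These were Mmp2 at -0.59 (SE 0.09), Mmp13 at -1.51, Mmp14 at -0.32 (SE 0.07) and Timp2 at -0.32 (SE 0.09), and the median over the 7 was -0.32 beside -0.01 for all genes. The Timp2 call was lost without normoxic library 2 or 3 or hypoxic library 1 or 3, with adjusted p of 0.0592 to 0.0801. Without hypoxic chondrocyte library 3 the count of called members was 2. Mmp11, Timp1 and Timp3 were higher in hypoxia by 0.20, 0.13 and 0.78, without passing the test, although Mmp11 passed without normoxic chondrocyte library 1 (0.29, adjusted p 0.0127).

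In osteoblast cultures 3 of 7 members were called, where 54.3% of all genes were: Mmp13 and Timp3 rose and Mmp2 fell by 0.32 on the log2 scale (SE 0.08, adjusted p 0.0108). Without normoxic osteoblast library 4 the count was 6 of 7, with Mmp11 and Timp1 higher and Timp2 lower in hypoxia (-0.30). With 1 fit over all 28 libraries and all 4 normoxic ones the count was also 6, with Mmp14 (adjusted p 0.0415), Timp1 and Timp2 (adjusted p 0.0493) added. In smooth muscle medium 7 of 9 members fell and Timp1 rose, where 75.6% of all genes were called, the member median being -1.95 beside -0.12 for all genes. Mmp9 and Mmp13 passed the filter through the normoxic group alone in that comparison. With library totals alone the median of all genes moved to -1.49, and Mmp2 (otherwise -0.88), Mmp11, Mmp14, Timp2 and Timp3 read -2.25, -3.32, -3.65, -3.38 and -2.62.

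**Figure D3:**
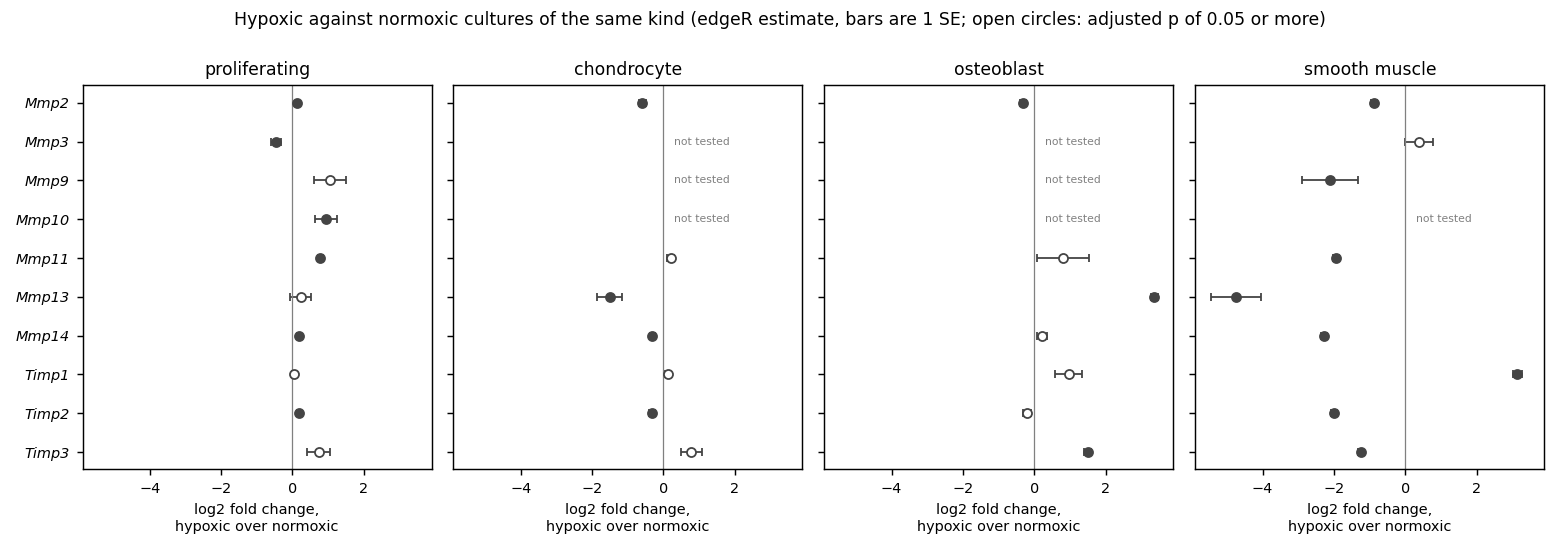
Log2 fold change of hypoxic over normoxic cultures of the same kind for each gene, with bars of 1 SE and open circles for an adjusted p of 0.05 or more. Mmp13 is higher in hypoxic osteoblast cultures (3.36) and lower in hypoxic chondrocyte (-1.51) and smooth muscle cultures (-4.74), and Timp1 stands at 3.14 in smooth muscle medium.

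Tests of the interaction asked whether the change from proliferation differed between oxygen levels. For chondrocyte cultures 5 of 10 members were called, all with the smaller change in hypoxia, where 43.5% of all genes were called. Of these Mmp11 (-0.57) lost its call with 1 fit over all 28 libraries (-0.52, adjusted p 0.552). For osteoblast cultures 4 of 10 were called, where 54.2% of all genes were, with Mmp13 and Timp3 changing more and Mmp2 and Timp2 changing less in hypoxia. The count was 2 without normoxic osteoblast library 1 or 2, hypoxic proliferating library 1 or 2, or any one hypoxic osteoblast library, and 6 without normoxic osteoblast library 4, with Mmp11 (1.19) and Timp1 (1.47) then called. For smooth muscle medium 9 of 10 were called, where 70.4% of all genes were, every member except Mmp3, which passed without normoxic smooth muscle library 4 (0.59, adjusted p 0.0307) or without the low-count filter (0.82, adjusted p 1.1e-04). The Mmp13 call was lost under limma-voom (-4.90, adjusted p 0.0632), and the Mmp9 interaction of -3.12 was -6.20 without hypoxic smooth muscle library 3. The calls of Mmp9, Mmp10 and Mmp13 are a description, since in comparisons of these groups each passed the low-count filter through 1 group alone. Mmp10 and Timp1 had the higher change in hypoxia, and Mmp2, Mmp9, Mmp11, Mmp13, Mmp14, Timp2 and Timp3 the lower one. With library totals alone the interactions of Mmp2, Mmp14, Timp2 and Timp3 were -2.31, -3.76, -3.48 and -3.28, and those of Mmp10 and Timp1 were 2.23 and 1.81. These interactions share their proliferating libraries.

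The chondrocyte and osteoblast groups were also compared directly. In normoxia 4 of 7 tested members differed, where 59.7% of all genes were called: Timp1 was higher in chondrocyte cultures by 2.77 (SE 0.33, adjusted p 1.3e-04), and Mmp13 (-1.19), Timp2 (-1.02) and Timp3 (-0.44) were lower. The Timp3 call was lost without normoxic chondrocyte library 1 or 2 (adjusted p 0.0574 and 0.0807) and with 1 fit over all 28 libraries (0.0968). Without normoxic osteoblast library 4 Mmp11 was higher in chondrocyte cultures by 2.06 and Mmp14 by 0.19, and both were then called. With all libraries Mmp11 (0.94) passed under limma-voom and in 1 fit over all 28 libraries, and Mmp14 (0.31) under 5 of the alternatives. In hypoxia 6 of 7 differed, where 57.6% of all genes were called. Lower in chondrocyte cultures were Mmp13 (-6.03, SE 0.18, adjusted p 2.3e-10), Timp3 (-1.12, SE 0.29) and Timp2 (-1.10, SE 0.10), while Timp1 was higher by 1.97 (SE 0.09). The smaller differences of Mmp2 (-0.26) and Mmp11 (0.38) were also called. The Mmp2 call was lost without hypoxic chondrocyte library 1 or 3 or osteoblast library 1 or 2, and the Timp3 call without osteoblast library 1 or 3 or without the low-count filter (adjusted p 0.0839). The Mmp11 call was lost with library totals alone (0.26, adjusted p 0.0722) and with 1 fit over all 28 libraries (0.37, adjusted p 0.516), and its difference was 0.22 without osteoblast library 3.

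Ratios of 2 genes within a library do not depend on library scaling. They were taken as log2 ratios of counts, each raised by 0.5, and tested by a two-sided exact permutation test over libraries. Of 84 such tests (7 ratios in 12 comparisons), 22 had a p under 0.05 and 0 had an adjusted p under 0.05, the smallest adjusted p being 0.109. The design allows no p under 0.0286 for 4 against 4 libraries, 0.0571 for 4 against 3 and 0.1 for 3 against 3. No adjusted p under 0.0857 was possible, so the 0 was fixed in advance and the values are given with their spread. The libraries of the groups did not overlap in 59 of the 84 tests. The ratio of Mmp13 to Timp1 was -6.79 ± 0.22 (SD, n = 4) in normoxic proliferating cells, -1.25 ± 0.70 (SD, n = 4) in normoxic osteoblast cultures and 1.00 ± 0.19 (SD, n = 3) in hypoxic osteoblast cultures. Hypoxic osteoblast cultures were the only group with more Mmp13 than Timp1 counts, although per kb of exon Timp1 (55.4 mean CPM per kb) was above Mmp13 (36.8) there too. For smooth muscle medium this ratio was -1.11 ± 1.13 (SD, n = 4) in normoxia and -9.0 ± 1.22 (SD, n = 3) in hypoxia, the lowest group of the 8.

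The ratio of Mmp2 to Timp2 was above 0 in chondrocyte cultures, at 0.94 ± 0.13 (SD, n = 4) in normoxia and 0.67 ± 0.07 (SD, n = 3) in hypoxia, and below 0 in proliferating cells, at -0.88 ± 0.03 (SD, n = 4) and -0.92 ± 0.08 (SD, n = 3). In smooth muscle medium it was -0.67 ± 0.09 (SD, n = 4) in normoxia and 0.46 ± 0.16 (SD, n = 3) in hypoxia. The ratio of Mmp14 to Timp2 was likewise highest in chondrocyte cultures, at 0.17 ± 0.08 (SD, n = 4) and 0.18 ± 0.09 (SD, n = 3), the only groups with more Mmp14 than Timp2 counts. Per kb of exon Timp2 was above Mmp14 in both, at 324 against 239 mean CPM per kb in normoxia and 262 against 194 in hypoxia. The ratio of Timp1 to Timp3 ran from 1.41 ± 0.60 (SD, n = 4) in normoxic proliferating cells to -5.05 ± 0.56 (SD, n = 4) in normoxic and -5.44 ± 0.13 (SD, n = 3) in hypoxic osteoblast cultures. Hypoxic smooth muscle medium kept a positive value of 1.31 ± 0.28 (SD, n = 3), where the normoxic one was -3.09 ± 0.23 (SD, n = 4).

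**Figure D4:**
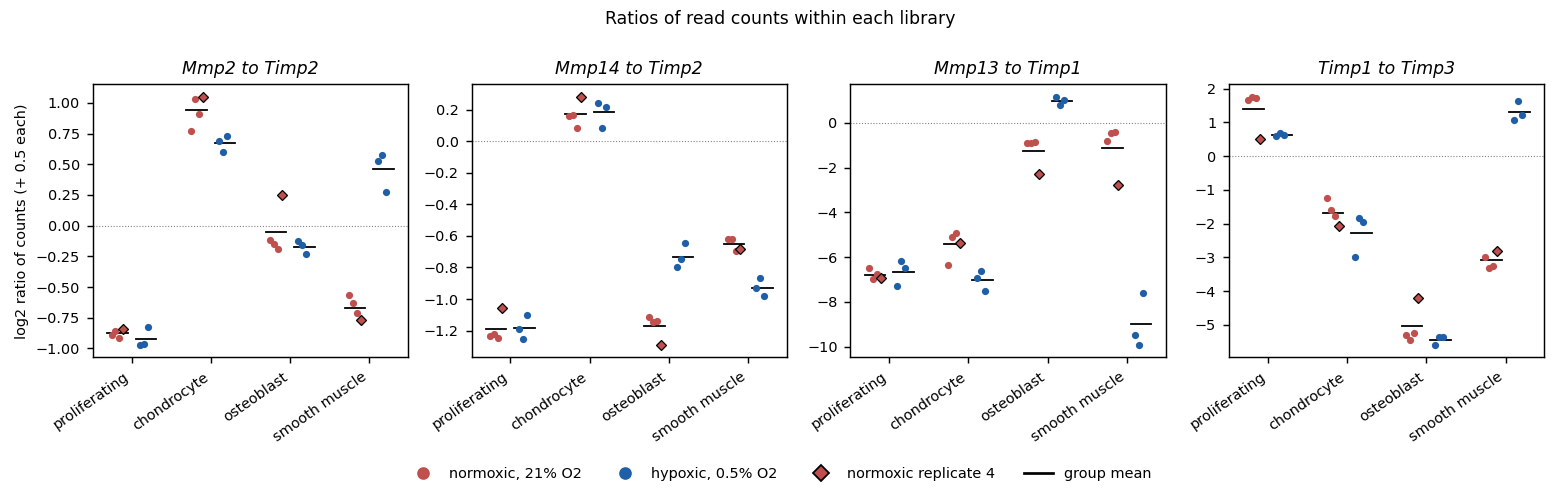
Log2 ratios of read counts within each library for 4 gene pairs, red for normoxic and blue for hypoxic libraries, diamonds for library 4 of the normoxic groups and black bars for group means. Mmp13 to Timp1 lies above 0 only in the 3 hypoxic osteoblast libraries, and Mmp2 to Timp2 lies above 0 in all 7 chondrocyte libraries.

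Levels of different genes can be set side by side only per length, here as mean CPM per kb of exon. In normoxic proliferating cells Timp1 (167) and Timp2 (158) were the most abundant members per length, above Mmp2 (99.6), Mmp14 (45.4) and Mmp3 (24.2). In normoxic osteoblast cultures Mmp2 (729) and Timp2 (658) led and Timp1 stood at 28.5. In hypoxic osteoblast cultures Mmp2 (581), Timp2 (567), Timp3 (261) and Mmp14 (223) led, with Timp1 at 55.4 and Mmp13 at 36.8. In hypoxic smooth muscle medium Timp1 was first per length (233), ahead of Mmp2 (172) and Timp2 (108). Mmp9 and Mmp10 stayed at or below 1.23 CPM per kb in each of the 8 group means.

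Of 17 further MMP and TIMP genes, 5 to 8 were tested in each comparison. Some passed the low-count filter through 1 group alone, so the counts below are a description. In normoxic chondrocyte cultures 4 of 6 rose, where 74.9% of all genes were called, and Mmp16, a membrane-type MMP, fell by 1.01 on the log2 scale (SE 0.10). In normoxic osteoblast cultures 5 of 6 rose (78.7% of all genes called), led by Mmp15, another membrane-type MMP, at 7.03 (SE 0.49) and Mmp28 (epilysin) at 5.51 (SE 0.19). Mmp15 held at most 0.183 CPM in normoxic proliferating libraries. It passed the filter through the osteoblast libraries alone, so its rise is a description. In hypoxic osteoblast cultures 6 of 8 rose (71.3%), and Timp4, the fourth inhibitor, held 6.22, 3.52 and 4.6 CPM there against at most 1.3 CPM in any other library. Between oxygen levels in osteoblast cultures 3 of 8 rose and 3 fell (54.3%), with Timp4 at 2.81 (SE 0.48) and Mmp15 at -3.35 (SE 0.31) at the extremes. In smooth muscle medium 4 of 7 were lower in hypoxia (75.6%), with Mmp15 at -5.13 (SE 0.62) and Mmp28 at -3.96 (SE 0.22), while Mmp23 was higher by 4.88 (SE 0.48). Mmp15 held at most 0.179 CPM in the hypoxic libraries and Mmp23 at most 0.211 CPM in the normoxic ones. Each passed the filter through the other group alone, so both differences are a description. With library totals alone the median of all genes moved from -0.12 to -1.49 in that comparison, and these genes were not refitted.

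Activators, receptors and other inhibitors of MMPs formed a list of 24 genes. Under hypoxia 9 of 17 tested rose and 7 fell in osteoblast cultures, where 54.3% of all genes were called, with Plaur, the urokinase receptor, at 2.64 (SE 0.39) and Plau, urokinase itself, at 2.59 (SE 0.23). Serpine2, an inhibitor of plasminogen activators, fell by 5.41 on the log2 scale there (SE 0.20). Of 17 tested in smooth muscle medium, 8 rose and 7 fell (75.6% of all genes called), with Plaur at 3.34 (SE 0.18) and Serpine2 at -6.10 (SE 0.13). With library totals alone the median of all genes moved from -0.12 to -1.49 in that comparison, and this list was not refitted. In normoxic osteoblast cultures against proliferating cells 12 of 17 rose and 3 fell (78.7%), led by Lcn2, lipocalin 2, at 7.15 (SE 0.34), with Plaur lowest at -4.15 (SE 0.34).

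The list of 16 transcription factors known for MMP promoters held the AP-1, Ets and Runx families. In normoxia 10 of 16 fell and 2 rose in osteoblast cultures, where 78.7% of all genes were called, with Fosl1 at -8.31 (SE 0.35), the Ets factor Etv4 at -8.45 (SE 0.18) and Fos at 3.52 (SE 0.19). Normoxic osteoblast libraries held Etv4 at 0.160 to 0.487 CPM and Fosl1 at 0.283 to 1.56 CPM. Both passed the low-count filter there through proliferating cells alone, so their falls are a description. Between oxygen levels in osteoblast cultures 10 of 16 were higher and 1 lower in hypoxia (54.3% of all genes called), a median of 1.20 beside -0.03 for all genes. Fosl1 was higher by 6.50 (SE 0.42) and Etv4 by 4.83 (SE 0.28), and Stat3 fell by 0.36 on the log2 scale (SE 0.07). Etv4 passed the filter there through the hypoxic libraries alone, so its rise is a description. Against hypoxic proliferating cells 6 of 16 rose and 7 fell in hypoxic osteoblast cultures (71.3% of all genes called), with a median of -0.11 beside 0.00 for all genes. Fos rose by 7.35 (SE 0.21) and Runx2 by 1.60 (SE 0.08), and the Ets factors Etv5 and Etv4 were lowest at -3.62 (SE 0.09) and -3.21 (SE 0.09). Fos read 150, 99.4 and 136 CPM in these libraries and at most 31.7 CPM in any other, and Runx2 read 125, 147 and 152 CPM against at most 92.9 CPM. In hypoxic smooth muscle medium 11 of 16 factors were higher than in normoxia and 3 lower (75.6%), with Etv4 at 4.00 (SE 0.21) and Fosl1 at 3.84 (SE 0.13). The list median was 0.81 beside -0.12 for all genes. With library totals alone the median of all genes moved to -1.49. The factors were not refitted, so how many would stay higher was not tested.

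Of 12 growth factors and cytokines known to induce gelatinases or collagenases, 6 to 8 were tested in each comparison. In normoxic osteoblast cultures 4 of 7 rose and 3 fell, where 78.7% of all genes were called, with Fgf2 at 5.81 (SE 0.11) and the EGF family ligand Areg at -10.39 (SE 0.37). The group that carried each of these genes over the low-count filter was not worked out, so the counts are a description. Between oxygen levels in osteoblast cultures 3 of 6 were higher and 1 lower in hypoxia (54.3%), with Hbegf at 1.63 (SE 0.31), Tgfb2 at 1.29 (SE 0.34) and Tgfb3 at -1.01 (SE 0.15). Of 7 tested in smooth muscle medium, 4 were higher and 3 lower (75.6%), with Areg at 3.59 (SE 0.35), Lif at 3.31 (SE 0.29), Fgf2 at -2.74 (SE 0.30) and Tgfb2 at -3.73 (SE 0.20). The median of all genes there moved from -0.12 to -1.49 with library totals alone, and these genes were not refitted.

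The genes most alike to each member were found by Pearson's r of log2(CPM + 1) over the 8 group means, among named genes with a mean of at least 10 CPM in a group. These correlations describe 8 points that share the proliferating state and the medium, and no p is given. Mmp13 was closest to Epc1 (0.982), Cbfa2t2 (0.973) and Cnksr3 (0.970), and Timp3 to Syn3 (0.990), its overlapping neighbour, Smad9 (0.989) and Vdr (0.988). Mmp2 was closest to Adamts2 (0.995), a procollagen-processing protease, and Mmp14 to Sulf2 (0.986), Ltbp2 (0.985) and Pdgfrb (0.984). Timp1 was closest to Arpc2 (0.981), Mmp11 to Anpep (0.996), Mmp3 to Bnc1 (0.991), Mmp10 to Arhgap36 (0.990) and Mmp9 to Ifi47 (0.949).

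Library 4 of the normoxic groups was set against libraries 1 to 3 of its group, and the labels name no batch. In proliferating library 4 the hypoxia response sum was 1150 CPM, against 1063 to 1142 CPM in libraries 1 to 3 and 9060 to 9779 CPM in hypoxic proliferating cells, while its Timp3 level was in the hypoxic range. The cause of these differences was not tested.

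**Figure D5:**
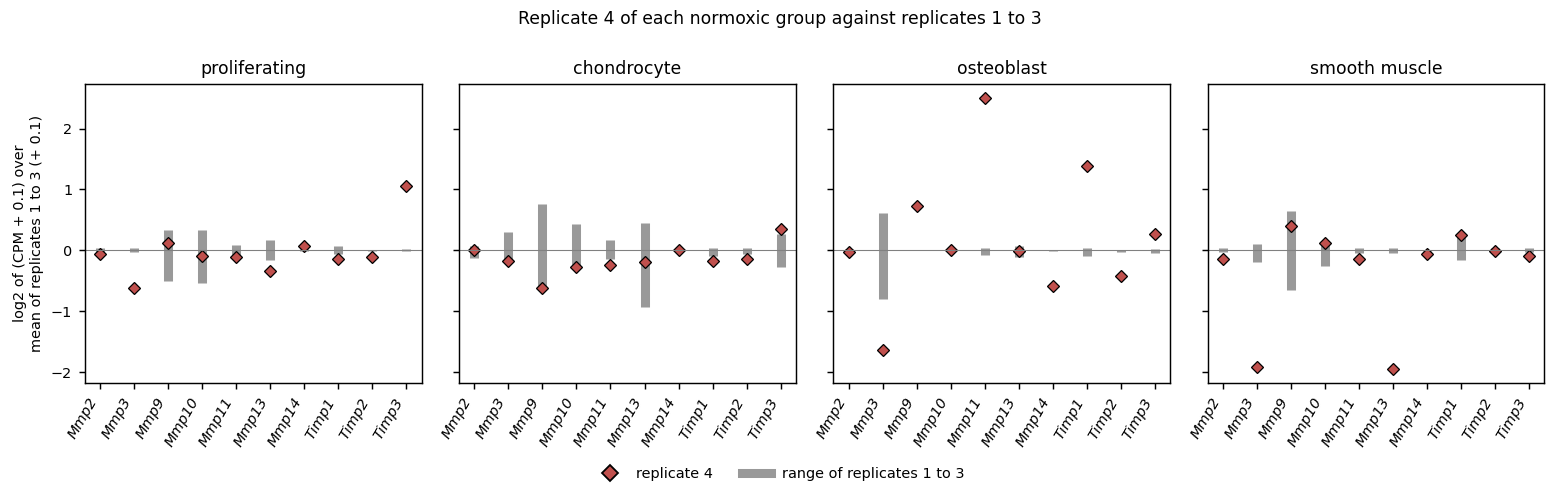
Level of each gene in library 4 of the normoxic groups (diamonds) on the log2 scale against the mean of libraries 1 to 3, with grey bars for the range of those 3 libraries and 0.1 CPM added throughout. Mmp11 and Timp1 stand high in osteoblast library 4, Timp3 in proliferating library 4, and Mmp3 and Mmp13 stand low in smooth muscle library 4.

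The authors' deposited tables of 10 comparisons hold 95 log2 fold changes of the members, 91 of which also have a value here. All 91 had the same sign in the authors' deposited tables, and the largest difference in size was 0.66 on the log2 scale.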

How the data were processed

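PolyA RNA of 28 samples was sequenced from stranded libraries. The authors deposited raw read counts per gene, made with HISAT2 2.0.5, StringTie 1.3.3b and featureCounts 1.5.0-p3 on mm10, per the submitters' processing notes. The strand setting and annotation used for counting are not given in the sources used here. The authors also deposited tables of log2 fold changes, used here for comparison with the present estimates. Another 70 columns of values per sample were not used. Symbols were matched for 54314 of 54429 genes, and positions and exon lengths came from GENCODE vM21 (GRCm38, the same assembly as mm10).

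Each comparison was fitted in edgeR 4.0.16 (R 4.3.3) on its own libraries, after filterByExpr (minimum count 10, minimum total 15) and TMM scaling, by the robust quasi-likelihood test with Benjamini-Hochberg adjustment over all genes tested. The interactions were fitted on the libraries of 4 groups. CPM values use TMM-scaled library sizes over all 28 libraries. Ratios were tested with scipy 1.17.1, and the fits were tested on simulated data. Alternatives used RLE size factors, library totals alone, other filters, DESeq2 1.42.0, limma 3.58.1 (voom), 1 fit over all libraries, a replicate block (over the replicate numbers that the groups share, hence without normoxic library 4 wherever hypoxic groups enter), a fold threshold in addition and each library left out. The alternative with normoxic libraries 1 to 3 only was added after seeing the data. All 10 members were named in every comparison, and from the other lists at most 2 called genes in each direction, those that moved most, with any tested MMP or TIMP gene allowed. For list genes without a printed level, the group that carried them over the low-count filter was not worked out. The members and lists were chosen with earlier results of these data known. Counting intervals are exact at the 95% level and, like the floor of 3 counts, cover counting error only. The gene most alike to Timp2 is not reported here.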

Additional observations from a re-analysis of the deposited data

Results flagged for a closer look

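Library 4 of the normoxic groups lay far from the other 3 libraries of its group for 9 of 32 gene and group combinations with a mean of at least 1 CPM, by Dixon's test at the 95% level, and all 9 were library 4. Chance gives about 1 in 20 for a single combination, but genes of the same library are not independent, so the share of flags cannot be judged by it. Only the normoxic groups, with 4 libraries each, were tested. In proliferating cells these were Mmp3 at 31.0 CPM (others 46.8 to 49.1), Timp2 at 584 CPM (others 624 to 631) and Timp3 at 96.0 CPM (others 45.9 to 47.0). In osteoblast cultures they were Mmp11 at 455 CPM (others 76.2 to 83.0), Mmp14 at 836 CPM (others 1246 to 1252), Timp1 at 47.2 CPM (others 16.9 to 18.6) and Timp2 at 2045 CPM (others 2700 to 2756). In smooth muscle medium they were Mmp13 at 4.25 CPM (others 16.2 to 17.2) and Mmp14 at 1154 CPM (others 1194 to 1202). Chondrocyte library 4 gave none.

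The change from proliferation differed between hypoxia and normoxia, by the edgeR interaction test, in 18 cases. Of all genes 43.5% were called for chondrocyte cultures, 54.2% for osteoblast cultures and 70.4% for smooth muscle medium, beside 5, 4 and 9 of the 10 members. For chondrocyte cultures the log2 interactions (hypoxic minus normoxic change) were -0.71 for Mmp2, -0.57 for Mmp11, -1.72 for Mmp13, -0.49 for Mmp14 and -0.49 for Timp2. For osteoblast cultures they were -0.41 for Mmp2, 3.18 for Mmp13, -0.34 for Timp2 and 0.80 for Timp3. For smooth muscle medium they were -0.97 for Mmp2, -3.12 for Mmp9, 3.51 for Mmp10, -2.69 for Mmp11, -4.93 for Mmp13, -2.43 for Mmp14, 3.15 for Timp1, -2.14 for Timp2 and -1.95 for Timp3. Those of Mmp9, Mmp10 and Mmp13 are a description, since each passed the low-count filter through 1 group alone in comparisons of these groups. Several of the smooth muscle values also changed in size with library totals alone, as given above. The Mmp11 interaction in chondrocyte cultures lost its call with 1 fit over all 28 libraries (adjusted p 0.552), and the Mmp13 one in smooth muscle medium under limma-voom (adjusted p 0.0632). The Mmp9 interaction was -6.20 without hypoxic smooth muscle library 3, and the osteoblast interactions of Timp2 and Timp3 lost their calls when single libraries were left out.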

How the results depend on the processing

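Of 2300 values under alternatives for the log2 changes, 2129 kept their direction and their side of the threshold, 58 passed the threshold anew, 71 lost it and 42 changed sign. With an absolute log2 change of at least 1 required as well, the members called were 2 in hypoxic smooth muscle medium against hypoxic proliferating cells, 0 in hypoxic against normoxic proliferating cells, 1 in hypoxic against normoxic chondrocyte cultures, and 1 each for the chondrocyte and osteoblast interactions. In hypoxic against normoxic proliferating cells the count was 3 with library totals alone and 1 (Timp3, not among the 6) with 1 fit over all 28 libraries, and 3 to 7 when single libraries were left out. Hypoxic against normoxic osteoblast cultures gave 6 with 1 fit over all libraries, 6 with a replicate block and 6 with normoxic libraries 1 to 3 only, and 3 to 6 with single libraries left out. Leaving out single libraries gave 2 to 5 calls in hypoxic against normoxic chondrocyte cultures and 2 to 6 for the osteoblast interaction.

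Signs changed with library totals alone for Timp1 in normoxic chondrocyte cultures (-0.092), for Mmp2 (-0.46) and Timp1 (-0.66) in hypoxic smooth muscle medium against proliferating cells, for Timp1 between oxygen levels in proliferating cells (-0.042), for Mmp3 between oxygen levels in smooth muscle medium (-0.98), and for the interactions of Mmp11 (-0.077) and Mmp14 (-0.039) in osteoblast cultures and Mmp3 (-0.44) in smooth muscle medium. Timp1 between oxygen levels in proliferating cells was also below 0 without the low-count filter (-0.0084), with 1 fit over all libraries (-0.024), with a replicate block (-0.018) and with normoxic libraries 1 to 3 only (-0.019). Mmp11 in hypoxic smooth muscle medium against proliferating cells read 0.016 with RLE factors and 0.016 with DESeq2. Mmp2 between normoxic chondrocyte and osteoblast cultures read 0.0063 with RLE factors, 0.0063 with DESeq2 and 0.0019 with 1 fit over all libraries. The chondrocyte interaction of Timp3 read -0.10 with limma-voom, -0.21 with a replicate block and -0.18 with normoxic libraries 1 to 3 only. In the osteoblast interaction Mmp11 read -0.0037 with at least 10 counts in every library, Mmp10 -0.011 with limma-voom, and Mmp14 -0.062 with a replicate block and -0.062 with normoxic libraries 1 to 3 only. None of these values passed the test except Mmp2, Timp1 and Mmp3 in smooth muscle medium with library totals alone. The causes were not tested.

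Leaving out single libraries also took these log2 changes across 0. In hypoxic chondrocyte against proliferating cells Mmp13 ran from -0.33 to 0.20. In hypoxic smooth muscle medium against proliferating cells Mmp9 ran from -3.28 to 0.41. Between oxygen levels in proliferating cells Timp1 ran from -0.019 to 0.057 and Mmp13 from -0.042 to 0.49. Between normoxic chondrocyte and osteoblast cultures Mmp2 ran from -0.029 to 0.048. In the chondrocyte interaction Timp3 ran from -0.36 to 0.24, Mmp9 from -4.44 to 2.74 and Mmp3 from -1.27 to 2.51. In the osteoblast interaction Mmp11 ran from -0.19 to 1.19, Mmp14 from -0.037 to 0.13 and Mmp10 from -0.91 to 2.53.

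Replicate numbers did not pair the libraries: correlations of same-numbered deviations ran from -0.31 to 0.13. The hypoxic groups have no library 4, so each fit with a replicate block between oxygen levels or for an interaction also left out normoxic library 4; it changed both choices at once, and is not separate from the fits with normoxic libraries 1 to 3 only. Mmp9 between oxygen levels in smooth muscle medium had an adjusted p of 0.0652 with a replicate block and 0.0611 without normoxic library 4 alone. The ratio of Mmp3 to Mmp10 between hypoxic osteoblast and proliferating cells became 0.43 with 0.1 counts added, and that of Mmp9 to Timp1 between normoxic osteoblast and proliferating cells became 0.17 with 1 count added. Of the 30 most alike genes, 16 were also among the 3 most alike of their member over the 28 single libraries. Genes with few counts, Mmp9 and Mmp10 throughout and Mmp3 in chondrocyte and osteoblast cultures, set the limit of depth here.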
